A study of Mus musculus with 3 samples.

Results

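The nuclear genes of oxidative phosphorylation were examined for an accessible promoter in sorted hair follicle stem cells (HFSCs). Members were the autosomal protein-coding genes of mouse GRCm38 whose symbols begin with Ndufa, Ndufb, Ndufc, Ndufs, Ndufv, Uqcr, Cox4, Cox5, Cox6, Cox7, Cox8 or Atp5, together with Sdha, Sdhb, Sdhc and Sdhd. The rule found 91 gene entries with 90 symbols among 20720 autosomal protein-coding genes, since Atp5o has a second entry. By symbol, 36 belonged to complex I, 4 to complex II, 8 to complex III, 17 to complex IV and 17 to complex V. The remaining 9 were Ndufaf1 to Ndufaf8, which help to assemble complex I, and Atp5s, a coupling factor. Membership was set by symbol alone and used no measured value.

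The series held 3 Omni-ATAC-seq libraries, a method in which the Tn5 transposase inserts adapters into open DNA. The cells were HFSCs of dorsal skin, sorted as CD34+CD49f+Sca-1-, from telogen mice aged 6 months. Msx2-WT had 1 library, for which the study's methods name C57BL/6J mice matched for the stage of the hair cycle. Msx2-KO had 2 libraries, from mice in which a neo cassette placed upstream of exon 2 inactivates Msx2, a homeobox transcription factor gene. How many animals went into a library is not given in the sources used here. The libraries are called WT, KO1 and KO2 (knockout replicates 1 and 2), and values given as a series follow this order. By the labels WT was made in a batch of its own and KO1 and KO2 in another, so the effects of genotype and batch cannot be told apart. The wild type had 1 library, and genotypes were therefore not tested against each other. The deposited peak names use cKO for KO1 and KO2, and for KO1 a library number that differs from the label. Groups follow the labels.

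Oxidative phosphorylation couples the oxidation of NADH and succinate to ATP synthesis in the inner mitochondrial membrane. Electrons enter at complex I or complex II and pass through complex III to complex IV, which reduces oxygen, and complex V makes ATP from the proton gradient. Most subunits are encoded in the nucleus, and several subunits of complex IV exist as a widely expressed isoform and a paralog restricted to muscle, testis or lung. Resting stem cells such as those of the hair follicle are known for a relatively low use of respiration, whereas the genes themselves are commonly treated as housekeeping genes.

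Depth differed between the libraries. The background, the commonest local tag number per counting window of the peak caller, was 1.74 tags in WT, 0.476 in KO1 and 0.790 in KO2. Summits with a q-value below 0.01 numbered 33654, 19450 and 41091, and the lowest tag number among them was 9, 5 and 6. Promoters of HFSC markers were accessible for 8, 8 and 10 of 11 genes, among them Itga6, Krt5, Krt14, Lhx2, Sox9 and Tcf7l1 in every library. Krt15 and Cd34, whose product was used for the sort, had no promoter peak in KO1, Lgr5 and Tbx1 had none in WT, and Nfatc1 had none in any library. No promoter peak was found in any library for 4 leukocyte, 2 endothelial, 2 muscle and 2 male germ cell markers. The fibroblast markers Col1a1 and Pdgfra had promoter peaks in WT and KO2 and none in KO1. Their summits lay a median of 2974 bases after the start of the principal transcript in WT and 2390 in KO2, and none within 250 bases of it. The melanocyte markers were accessible for 2, 1 and 2 of 2 genes. The part of such cells in the values of the members was not tested.

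A gene was counted as accessible when the summit of a peak with a q-value below 0.01 lay within 1500 bases of a start site. Most members were accessible in each library. In WT 79 of 91 members had a promoter peak (86.8%, Wilson 95% interval 78.4% to 92.3%), compared with 48.5% of all autosomal protein-coding genes. In KO1, 64 of 91 members had one (70.3%, 60.3% to 78.7%), compared with 38.7%. In KO2, 82 of 91 members had one (90.1%, 82.3% to 94.7%), compared with 54.8%. The order of the libraries was that of all genes, with KO1 lowest and KO2 highest. The intervals cover counting error only, and tags are not independent molecules because the authors kept duplicate reads.

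The complexes differed mainly in KO1, the shallowest library. Complex II, the succinate dehydrogenase, had all 4 promoters accessible in each library. Complex I, which oxidises NADH, had 31, 31 and 34 of 36 in WT, KO1 and KO2. Complex III, which passes electrons to cytochrome c, had 8, 5 and 8 of 8. Complex IV, the cytochrome c oxidase, had 12, 5 and 11 of 17, and without its 7 tissue isoforms 10, 5 and 10 of 10. Complex V, the ATP synthase, had 16, 11 and 16 of 17. The assembly factors and Atp5s had 8, 8 and 9 of 9.

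**Figure D1:**
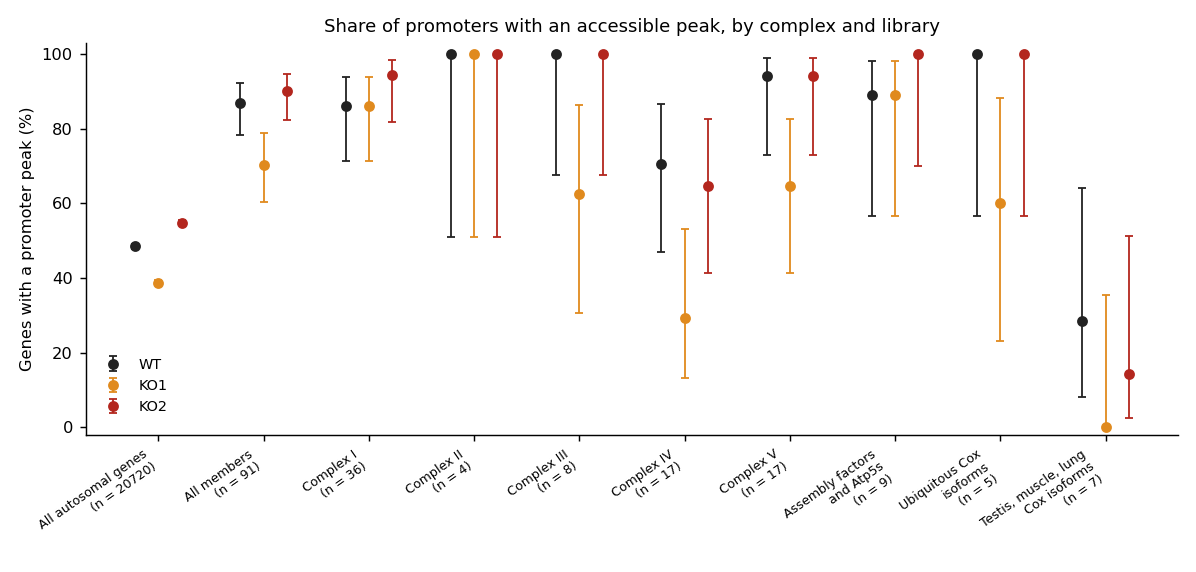
Share of genes with a promoter peak (percent, vertical axis) for all autosomal protein-coding genes, all members, each complex and the Cox isoforms, with points for the 3 libraries and bars for Wilson 95% intervals. All members lie above all autosomal genes in each library, at 86.8%, 70.3% and 90.1%, and complex IV and the tissue isoforms of Cox subunits are the lowest of the member groups.

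Across the libraries, 63 of 91 members (69.2%) had a promoter peak in all 3, compared with 36.1% of all genes. No library gave a peak for 8 entries (8.79%), compared with 42.6% of all genes. Only KO1 lacked a peak for 15 members (16.5%), compared with 10% of all genes. A peak in KO2 alone was found for 3 members, Ndufaf1, Ndufb8 and Ndufs3 (3.30%), compared with 6.45% of all genes. Genotype and library set agreed for 1 member in each direction. Ndufc2 had a peak in both knockout libraries and none in WT (1.10% of members), compared with 2.2% of all genes, and Cox7a1 had a peak in WT only (1.10%), compared with 2.2%. With the lists limited to the same number of summits, 4 members had a peak in both knockout libraries only (4.396%, compared with 3.79% of all genes) and 3 in WT only (3.30%, compared with 3.31%).

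**Figure D2:**
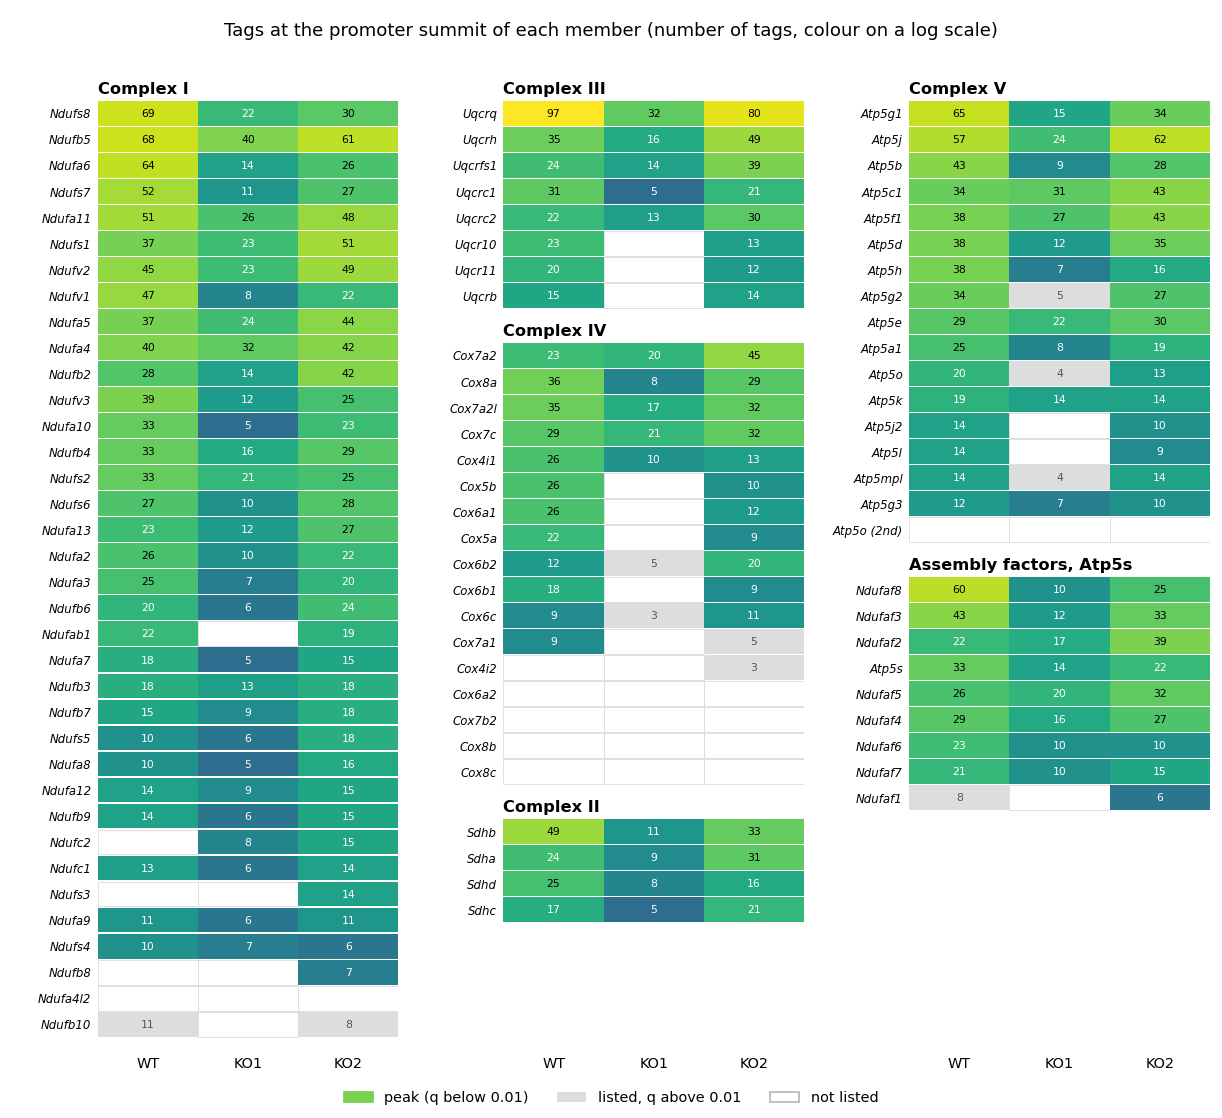
Number of tags at the promoter summit of each of the 91 entries in WT, KO1 and KO2, sorted within each complex by the highest value. Coloured tiles passed a q-value of 0.01, grey tiles were listed above it and white tiles were not listed. The white and grey tiles of KO1 gather in complexes III, IV and V, and tissue isoforms fill the foot of complex IV.

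Tag numbers were recovered at each summit and ranked among all autosomal promoters with a peak in the same library. The member with the highest median percentile was Uqcrq, a small subunit of complex III, with 97 tags in WT, 32 in KO1 and 80 in KO2. These tag numbers stood at the 99.8th, 89.8th and 98.1st percentile of promoters with a peak. Over the background of each library they were 55.8, 67.2 and 101.2 times as high. The gene lies at chr11:53427922-53430831 on the minus strand, and its summits lay 273, 108 and 239 bases before the start. In each library Uqcrq stood above every other gene of complex III, where the next highest median percentile was that of Uqcrh, the hinge protein, with 35, 16 and 49 tags. Uqcrfs1, the Rieske iron-sulfur protein, gave 24, 14 and 39 tags. Uqcrc1, a core protein of complex III, had the lowest median percentile there (49.6) among those with a peak in every library, with 31, 5 and 21 tags.

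In complex I, Ndufb5, an accessory subunit of the membrane arm, ranked first with 68, 40 and 61 tags in WT, KO1 and KO2 (median percentile 94.8). Ndufa11, also of the membrane arm, had 51, 26 and 48 tags, and Ndufv2, an iron-sulfur subunit of the NADH-oxidising module, had 45, 23 and 49. The lowest percentile of these 3 genes in any library was 79.5, for Ndufv2 in KO1. At the other end, Ndufs4, an accessory subunit of the matrix arm whose loss is a known cause of Leigh syndrome, had 10, 7 and 6 tags and a median percentile of 5.43. Ndufa8, an accessory subunit, shared this median percentile with 10, 5 and 16 tags. The order within complex I was not fixed across libraries. Ndufs8, a core iron-sulfur subunit, had the largest tag number of the complex in WT (69) but only 22 and 30 in the knockout libraries, and over the background its values were 39.7, 46.2 and 38.0.

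The 4 genes of complex II were read in all libraries. Sdhb, its iron-sulfur subunit, gave 49, 11 and 33 tags, and Sdha, the flavoprotein, gave 24, 9 and 31. The membrane anchors gave 25, 8 and 16 tags for Sdhd and 17, 5 and 21 for Sdhc. KO1 was the lowest library for each of these genes, and Sdhc stood there at the lowest tag number that passed the threshold.

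In complex IV the highest median percentile belonged to Cox7a2 (73.3), the widely expressed isoform of subunit 7a, with 23, 20 and 45 tags. Cox7a2l, a factor of respiratory supercomplexes, had 35, 17 and 32 tags and Cox7c had 29, 21 and 32. The lowest with a peak in each library was Cox4i1, a subunit on which the enzyme is built, with 26, 10 and 13 tags (median percentile 36.3). Ndufa4 carries a complex I symbol but is known as a subunit of complex IV. It had 40, 32 and 42 tags, more in each library than Cox4i1.

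In complex V, Atp5j, coupling factor F6 of the stalk, had 57, 24 and 62 tags (median percentile 92.6). Atp5c1, the central stalk subunit gamma, had 34, 31 and 43 tags, and Atp5f1, the peripheral stalk subunit b, had 38, 27 and 43. The c ring is encoded by 3 genes that yield the same mature protein, and their promoters were unlike. Atp5g1 had 65, 15 and 34 tags, and Atp5g3, the lowest of complex V with a peak in every library, had 12, 7 and 10. Atp5g2 had 34 and 27 tags in WT and KO2, and its 5 tags in KO1 did not pass the threshold. Among assembly factors the highest were Ndufaf3 (43, 12 and 33 tags), Ndufaf5 (26, 20 and 32) and Ndufaf2 (22, 17 and 39), and the lowest among those with a peak in every library were Ndufaf7 (21, 10 and 15) and Ndufaf6 (23, 10 and 10), with the same median percentile.

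By tag number, accessible members lay near the middle of accessible promoters, with a median percentile of 54.2 in WT, 46.8 in KO1 and 52.0 in KO2. By the authors' fold over the local background they stood higher in the deeper libraries, with medians of 8.31, 6.47 and 8.40 against 7.03, 6.48 and 7.53 for all accessible genes. Among promoters with a peak in every library, the 63 members had median tag numbers of 29, 12 and 27, against 29, 14 and 29 for the 7488 genes of that kind. Over the background these were 16.7, 25.2 and 34.2 for members and 16.7, 29.4 and 36.7 for all genes. Across the 63 members, Spearman's rho of tag numbers was 0.57 between WT and KO1, 0.66 between WT and KO2 and 0.79 between the knockout libraries. The values for all 7488 genes were 0.62, 0.68 and 0.84. These are descriptions across genes, which are not independent replicates, and the knockout libraries share a batch. No member stood at least 40 percentile points higher or lower in WT than in both knockout libraries, whereas 76 of 7488 genes did so upwards (1.01%) and 141 downwards (1.88%).

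Tags over the background were also set as a ratio of a knockout library to WT, on the log2 scale. For KO2 the median ratio of members was 0.94, compared with 1.08 over all 9557 genes with a peak and a tag number in both libraries, and 46 of 78 members lay below the median of all genes. For KO1 the median was 0.75 in members and 0.87 in all genes, and 36 of 63 members lay below it. Complex I had medians of 1.14 for KO2 and 0.87 for KO1, near those of all genes. Complex IV without its tissue isoforms had a median of 0.48 for KO2, and 7 of its 10 genes lay below the median of all genes. In that library these 10 promoters stood at a median percentile of 25.7, against 54.2 in WT. These 10 genes include 5 with no peak in KO1. The 5 with a peak in every library had medians of 1.01 for KO2 and 0.83 for KO1, compared with 1.18 and 0.87 over all genes with a peak in every library.

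**Figure D3:**
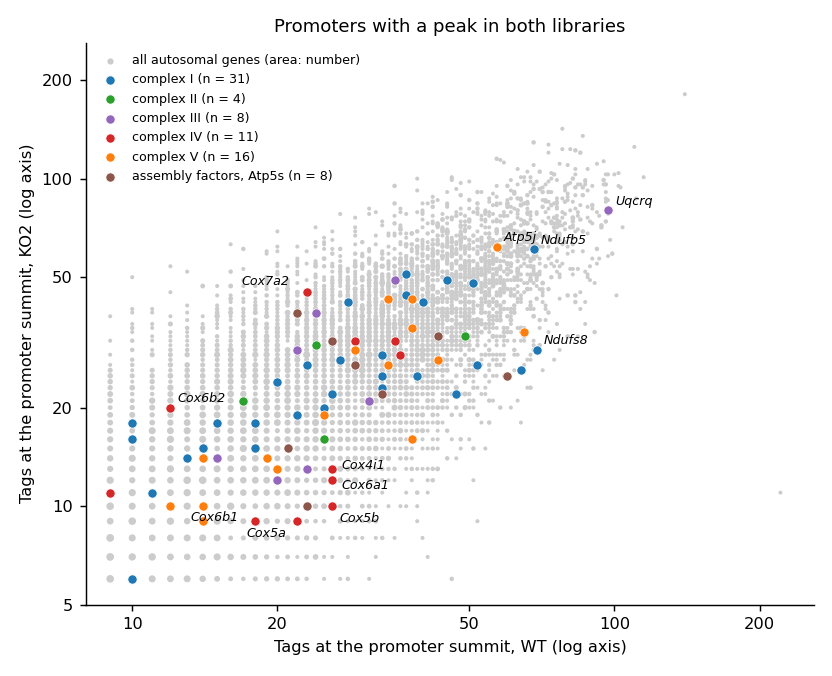
Tags at the promoter summit in WT (horizontal, log axis) and KO2 (vertical, log axis) for genes with a peak in both, grey for all autosomal genes and coloured by complex for 78 members. Members spread through the grey cloud, with Uqcrq at 97 and 80 tags. Cox4i1, Cox5a, Cox5b, Cox6a1 and Cox6b1 lie in its lower part, and Cox7a2, at 23 and 45 tags, lies in its upper part.

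Of 78 members with a peak in both deeper libraries, 15 had none in KO1 (19.2%, Wilson 95% interval 12.0% to 29.3%), close to the 21.7% of all 9563 such genes. By complex the counts ran from 0 to 6. Complex I lost 1 of 31, Ndufab1, the mitochondrial acyl carrier protein. Complex III lost Uqcrb, Uqcr10 and Uqcr11, that is 3 of 8. Complex IV lost 6 of 11, namely Cox5a, Cox5b, Cox6a1, Cox6b1, Cox6c and the tissue isoform Cox6b2. Complex V lost 5 of 16, namely Atp5o, Atp5g2, Atp5j2, Atp5l and Atp5mpl. Complex II and the assembly factors lost none.

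These promoters held fewer tags in the other libraries too. Their median was 20 tags in WT and 12 in KO2, compared with 29 and 27 for the 63 members with a peak in every library. Cox6a1 gave 26 and 12 tags, Cox5a 22 and 9, Cox5b 26 and 10 and Cox6b1 18 and 9. Over all genes the same medians were 16 and 12 for those lost and 29 and 29 for those kept. Among genes with at most 20 tags in both deeper libraries, 9 of 21 members (42.9%) and 55.0% of 2562 genes had no peak in KO1. Within this group of low tag number, the share of members did not exceed that of all genes. Members with more tags were not compared in this way, and the part of tag number in the missing peaks was not tested.

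Complex IV offers a comparison within the members, between 5 widely expressed isoforms and 7 paralogs restricted to certain tissues. The widely expressed Cox4i1, Cox6a1, Cox6b1, Cox7a2 and Cox8a were accessible in WT and KO2, and 3 of 5 in KO1. Of the tissue isoforms 2, 0 and 1 of 7 were accessible. A count of 0 of 7 allows a share of up to 35.4% by the Wilson interval. The shares of all autosomal genes, 48.5%, 38.7% and 54.8%, lay between those of the isoform classes.

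The muscle isoforms Cox6a2 and Cox8b and the testis isoforms Cox7b2 and Cox8c were not listed in any library at any threshold. Cox4i2, the isoform of lung that responds to low oxygen, was listed once, in KO2, with 3 tags at a −log10 q of 0.20. Cox7a1, the isoform of heart and skeletal muscle, had 9 tags in WT (Poisson 95% interval 4.12 to 17.1) with a −log10 q of 2.06, just past the threshold of 2. It was listed with 5 tags below the threshold in KO2 and not listed in KO1. Over the background these were 5.18 and 6.33, and the value in WT, where the gene counted as accessible, was the lower one. Cox6b2, the testis isoform, had 12 tags in WT and 20 in KO2, and 5 tags below the threshold in KO1. Its summits lay inside the gene, 325 and 206 bases after the start, and no other protein-coding start lay within 1500 bases of them. Ndufa4l2, a paralog of Ndufa4 that is induced by low oxygen, had no promoter summit in any library, although 1 summit lay elsewhere in the gene in WT.

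The isoform promoters also differ in sequence. The stretches below run 5′ to 3′ on the strand of the gene, from 120 bases before to 30 bases after the first base, and were read from the RefSeq sequence of GRCm38.p6, with each CpG in capitals. They are shown because these isoforms differ in CpG content. Cox4i1, Cox4i2 and Cox7b2 are not shown.
Cox6a1, widely expressed, chr5:115348952-115349101, minus strand: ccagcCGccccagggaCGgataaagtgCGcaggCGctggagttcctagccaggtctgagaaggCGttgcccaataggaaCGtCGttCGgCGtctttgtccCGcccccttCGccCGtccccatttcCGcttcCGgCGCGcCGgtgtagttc
Cox6a2, muscle, chr7:128206358-128206507, minus strand: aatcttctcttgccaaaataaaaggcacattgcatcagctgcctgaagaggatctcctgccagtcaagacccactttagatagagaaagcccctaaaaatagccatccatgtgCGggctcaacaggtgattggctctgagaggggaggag
Cox6b1, widely expressed, chr7:30626122-30626271, minus strand: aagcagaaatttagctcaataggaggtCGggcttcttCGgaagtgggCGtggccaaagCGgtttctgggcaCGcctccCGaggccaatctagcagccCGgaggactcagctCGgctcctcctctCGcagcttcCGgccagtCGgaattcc
Cox6b2, testis, chr7:4753065-4753214, minus strand: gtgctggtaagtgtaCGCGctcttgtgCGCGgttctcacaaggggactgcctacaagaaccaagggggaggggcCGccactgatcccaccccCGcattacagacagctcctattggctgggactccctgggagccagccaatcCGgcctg
Cox7a2, widely expressed, chr9:79759849-79759998, minus strand: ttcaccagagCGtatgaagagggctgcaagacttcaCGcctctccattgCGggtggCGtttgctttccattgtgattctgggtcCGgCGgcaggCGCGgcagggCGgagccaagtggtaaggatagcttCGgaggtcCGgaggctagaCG
Cox7a1, muscle, chr7:30184024-30184173, plus strand: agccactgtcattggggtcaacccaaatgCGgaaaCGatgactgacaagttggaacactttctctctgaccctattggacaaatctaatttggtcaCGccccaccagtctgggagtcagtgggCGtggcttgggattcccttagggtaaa
Cox8a, widely expressed, chr19:7217587-7217736, minus strand: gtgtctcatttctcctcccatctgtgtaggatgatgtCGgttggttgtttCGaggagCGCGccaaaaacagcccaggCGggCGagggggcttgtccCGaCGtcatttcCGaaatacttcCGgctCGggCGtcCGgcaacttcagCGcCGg
Cox8b, muscle, chr7:140900417-140900566, minus strand: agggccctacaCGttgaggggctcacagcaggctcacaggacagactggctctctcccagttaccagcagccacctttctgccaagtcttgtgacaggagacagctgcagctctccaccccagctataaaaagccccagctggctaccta
Cox8c, testis, chr12:102899196-102899345, plus strand: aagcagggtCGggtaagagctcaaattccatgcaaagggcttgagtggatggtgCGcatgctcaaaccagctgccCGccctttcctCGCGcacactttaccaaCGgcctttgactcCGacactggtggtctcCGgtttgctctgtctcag

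In these 150 bases Cox6a1 holds 17 CpG and its muscle paralog Cox6a2 holds 1. Cox6b1 holds 11 and Cox6b2 7, Cox7a2 holds 12 and Cox7a1 4, and Cox8a holds 15, against 1 in Cox8b and 8 in Cox8c. The tissue isoform was the poorer in each of these pairings. Over the wider stretch from 250 bases before to 50 after the start, a promoter was called CpG-rich with a G+C content of at least 50% and a ratio of observed to expected CpG of at least 0.6. All 5 widely expressed isoforms and none of the 7 tissue isoforms were CpG-rich, with median ratios of 0.84 and 0.43. The highest ratios of tissue isoforms were 0.56 in Cox7b2 and 0.54 in Cox4i2. By the number of CpG in this stretch the classes overlapped, with 16 in Cox4i2 and 15 in the widely expressed Cox6b1. Among all members 60 of 91 were CpG-rich (65.9%), compared with 45.2% of all autosomal genes, at a median G+C of 56.0% and 56.3%.

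CpG-rich promoters were the more accessible ones among all genes, at 76.4%, 62.7% and 84.8% in WT, KO1 and KO2, against 25.5%, 18.9% and 30.1% of the others. Among members the CpG-rich ones were accessible for 57, 49 and 60 of 60, which is 95%, 81.7% and 100%. Of the 31 members with other promoters, 22, 15 and 22 were accessible, which is 71.0%, 48.4% and 71.0%. Members thus lay above all genes in both classes of promoter. The 7 tissue isoforms, none of them CpG-rich, did not. They were accessible at 28.6%, 0% and 14.3%, beside 25.5%, 18.9% and 30.1% of all genes without CpG-rich promoters. The members without CpG-rich promoters that were accessible in every library include Cox7c, whose promoter has a G+C content of 39.0%.

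**Figure D4:**
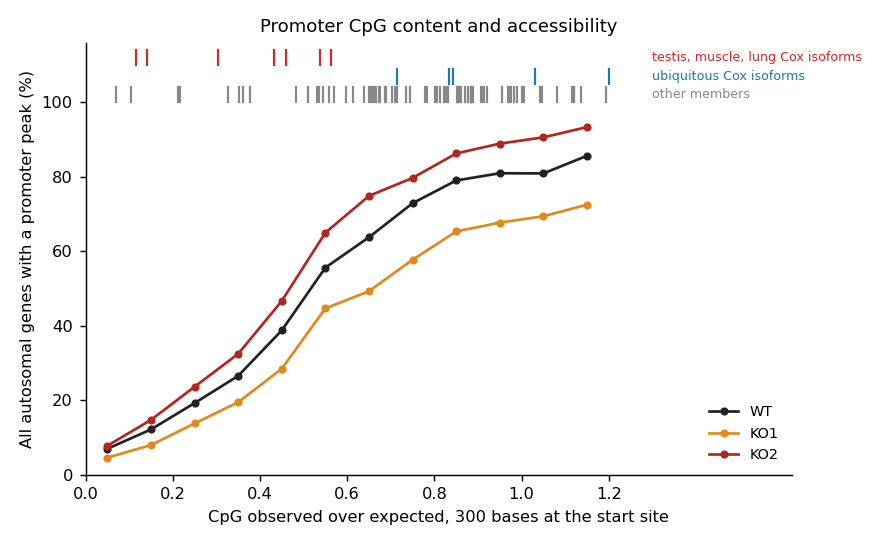
Share of all autosomal genes with a promoter peak (percent, vertical axis) by the ratio of observed to expected CpG in the 300 bases at the start site (horizontal axis, 12 bins, the last holding all higher ratios), with 1 line per library. Ticks along the top mark the ratio of each member, where the 7 tissue isoforms of Cox subunits all lie below 0.6 and the 5 widely expressed ones above it.

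Promoters of members were searched for short motifs of factors known to act on respiratory genes, on both strands from 250 bases before to 50 after the start. The letters were GCGCATGC for NRF1, CCGGAAGT for the ETS factor GABP, AAGATGGC for YY1, TCAAGGTCA for the ERR receptors and GGGCGG for Sp1. These strings do not contain each other, although an NRF1 match on one strand can overlap a match on the other. The NRF1 string was found in 11 of 91 members (12.1%, Wilson 95% interval 6.89% to 20.4%), compared with 3.47% of all autosomal promoters and 6.27% of CpG-rich ones. That of YY1 was found in 10 members (10.99%, 6.08% to 19.1%), compared with 3.10% and 5.01%. Of these 10 members 7 belonged to complex I. The ERR string occurred in Sdhd and Atp5g3 (2.20%), compared with 0.405% of all promoters. The GABP string was in 6 members (6.59%), compared with 5.13% of all promoters and 9.003% of CpG-rich ones, and that of Sp1 in 38 members (41.8%), compared with 46.2% and 76.9%. At least 1 of the strings other than Sp1 was held by 27 members (29.7%, 21.3% to 39.7%), 11.4% of all promoters and 19.1% of CpG-rich ones. The mitochondrial ribosomal protein genes gave 10.3% for NRF1, 14.1% for YY1 and 35.9% for at least 1 of the strings, so that these shares are not particular to the members.

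In the members the YY1 string lay mostly just after the start. In 9 of 10 it lay within the first 50 bases after the start and in the sense direction of the gene, starting between 11 and 37 bases into the transcript. Over all autosomal promoters with the string this was so for 244 of 643 (37.9%). The exception was Atp5h, with the string 210 bases before the start on the other strand. For each string the member with the highest median percentile is shown, with the string in capitals and up to 30 bases on either side, to at most 30 bases after the start.
Ndufa11, NRF1 string, chr17:56717672-56717739, plus strand: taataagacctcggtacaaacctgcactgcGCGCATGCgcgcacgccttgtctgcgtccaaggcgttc
Uqcrq, GABP string, chr11:53430798-53430856, minus strand: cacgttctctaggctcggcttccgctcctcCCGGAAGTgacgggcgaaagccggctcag
Ndufs7, YY1 string, chr10:80249443-80249481, plus strand: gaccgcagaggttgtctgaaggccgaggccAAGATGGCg
Sdhd, ERR string on the other strand, chr9:50603783-50603843, minus strand: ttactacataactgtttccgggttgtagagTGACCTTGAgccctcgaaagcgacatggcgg

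The string lay 65 bases before the start of Ndufa11, 2 bases into the transcript of Uqcrq, 22 bases into that of Ndufs7, a core iron-sulfur subunit of complex I, and across the start of Sdhd. Ndufs7 had 52, 11 and 27 tags at its promoter. Of the 11 members with the NRF1 string 10, 6 and 10 were accessible (90.9%, 54.5% and 90.9%), compared with 80.2%, 64.5% and 83.7% of all genes with it, and the testis isoform Cox8c had no peak in any library. Of the 10 members with the YY1 string 8, 8 and 9 were accessible, compared with 76.7%, 62.5% and 82.4% of all genes with it. A match in sequence is a description and does not show that a factor was bound.

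**Figure D5:**
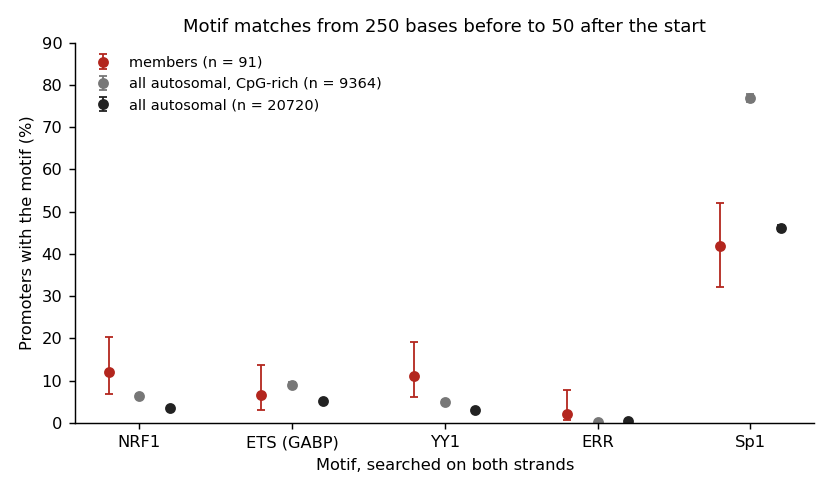
Share of promoters holding each motif string (percent, vertical axis) among 91 members, 9364 CpG-rich promoters and all 20720 autosomal promoters, with Wilson 95% intervals. NRF1 and YY1 stand higher in members, at 12.1% and 10.99%, than in either reference set, GABP at 6.59% lies between the 5.13% of all and the 9.003% of CpG-rich promoters, and Sp1 at 41.8% lies below both.

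Besides the tissue isoforms, Ndufb10, Ndufa4l2 and the second entry of Atp5o had no promoter peak in any library. Ndufb10, an accessory subunit of the membrane arm of complex I, was listed with 11 tags in WT and 8 in KO2, at −log10 q values of 1.45 and 0.88, and not listed in KO1. Its tag number in WT was above the lowest that passed elsewhere in that library. The second Atp5o entry spans 242585 bases of chromosome 16 and starts at base 91926982, inside the usual Atp5o gene, which had 20 tags in WT and 13 in KO2 at its own start. The usual entry encodes the subunit that joins the stalk to the catalytic head and was listed with 4 tags below the threshold in KO1.

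Ndufc2, an accessory subunit of the membrane arm, was the only member with a peak in both knockout libraries and none in WT. It had 8 tags in KO1 (Poisson 95% interval 3.45 to 15.8) and 15 in KO2 (8.40 to 24.7), which were 16.8 and 18.98 times the background. In WT no summit was listed within 1500 bases at any threshold. The gene lies at chr7:97400003-97407802 on the plus strand, its summits lay 146 and 66 bases after the start, and its promoter is not CpG-rich. Ndufs3, a core subunit of the matrix arm, had 14 tags in KO2 only, at a start that overlaps that of Kbtbd4 on the opposite strand, so that the summit belongs to both genes. Ndufb8, of the membrane arm, and Ndufaf1 had 7 and 6 tags in KO2, near the lowest that passed, and Ndufaf1 was listed with 8 tags below the threshold in WT.

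Members often shared their start with another gene. A start on the opposite strand within 1000 bases upstream, or overlapping by at most 300 bases, was found for 23 of 91 members (25.3%), compared with 8.35% of all autosomal genes. Such pairs include Ndufb5 with Mrpl47, a mitochondrial ribosomal protein gene, Ndufa7 with Rps28, Sdhd with Timm8b and Ndufs1 with Eef1b2. Of these 23 members 22, 21 and 23 were accessible in WT, KO1 and KO2, and of the other 68 members 57, 43 and 59 were. The same shares over all genes were 90.2%, 78.7% and 94.2% for such pairs and 44.7%, 35.1% and 51.2% for the rest. Among all genes with a CpG-rich promoter, 15.5% had such a partner. A summit cannot be assigned to either partner. The promoter summit also lay within 1500 bases of another gene for 29, 27 and 30 accessible members (36.7%, 42.2% and 36.6%).

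Peaks of members sat close to the start. In WT the summit lay within 250 bases of the reference start for 87.3% of accessible members, in KO1 for 87.5% and in KO2 for 85.4%, compared with 75.8%, 73.8% and 72.3% of all accessible genes. For cytosolic ribosomal protein genes the shares were 94.4%, 90.2% and 88.9%, and for mitochondrial ones 85.5%, 88.9% and 91.8%. All accessible genes with a CpG-rich promoter gave 83.6%, 81.2% and 81.0%, so that closeness to the start was not particular to the members. Among members Ndufa11 was an exception, with summits 636, 635 and 364 bases before its start, on the side of its neighbour Vmac. A further peak in the gene body beyond the promoter was held by 6, 4 and 6 of 91 members (6.59%, 4.396% and 6.59%), compared with 22.7%, 13.8% and 24.8% of all autosomal genes. Members were the shorter genes, with a median length of 7674 bases against 17594, and the part of length in this count was not tested. Ndufaf2 spans 155909 bases and had 3, 3 and 6 such summits, and Ndufs4 spans 100464 bases and had 2, 1 and 3.

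Further genes of the pathway outside the symbol rule were taken from a list of 36 assembly factors and cytochrome genes and a list of 12 regulators. Of the 36 genes, 32, 27 and 33 had a promoter peak (88.9%, 75% and 91.7%), beside 86.8%, 70.3% and 90.1% of members. Cyct, the testis form of cytochrome c, was not listed in any library, whereas the somatic gene Cycs had 42, 22 and 39 tags. The state in WT differed from both knockout libraries for 2 genes of the 36, 1 in each direction (2.78% each, compared with 2.20% of all genes in either direction). Tmem70, an assembly factor of complex V, was listed with 6 tags below the threshold in WT and had peaks of 6 and 7 tags in the knockout libraries. Cyc1, which encodes cytochrome c1 of complex III, had a peak of 16 tags in WT, was not listed in KO1 and had 5 tags below the threshold in KO2. All 12 regulators were accessible in WT and KO2, and 11 in KO1, where Polrmt, the mitochondrial RNA polymerase, was listed with 3 tags below the threshold. Ppargc1a, the coactivator of mitochondrial biogenesis, had 14, 17 and 25 tags, Nrf1 22, 10 and 31, Gabpa 57, 24 and 62, Esrra 70, 29 and 35 and Yy1 45, 38 and 63. The tag numbers of Gabpa equal those of the member Atp5j in every library, so they may be the same summits and not separate readings.

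The X-linked matches Ndufa1, Ndufb11 and Cox7b were left out of all counts. Ndufb11 had 19, 14 and 28 tags. Ndufa1 was listed with 8 tags below the threshold in WT and had peaks of 5 and 8 tags in KO1 and KO2. Cox7b was listed with 8 tags below the threshold in WT, was not listed in KO1 and had a peak of 11 tags in KO2. Among other housekeeping families, of 72 cytosolic ribosomal protein genes 72, 61 and 72 were accessible, and of 78 mitochondrial ribosomal protein genes 69, 45 and 73. In both families KO1 was the lowest library, as it was for the members and for all genes.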

How the data were processed

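Omni-ATAC-seq peak lists of 3 libraries were used, each as deposited. The authors, by the study's methods, aligned trimmed reads to GRCm38 with BWA and ran MACS2 with duplicates kept and no shifting model. Each library has a peak list of its own. The MACS2 version is not given in the sources used here. Each line is 1 summit. The authors deposited a fold enrichment over the local background, −log10 p and −log10 q values and a score column, which was not used. The lists reach below a q-value of 0.01, so summits with a −log10 q above 2 on chromosomes 1 to 19, X and Y were kept. Tag numbers were solved from the fold and −log10 p, since they must be whole, within 0.001 on the −log10 p scale. A whole number was found for at least 99.9% of summits, and the recovery was checked on simulated peaks. The background includes any mitochondrial tags present when peaks were called.

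Start sites were those of protein-coding transcripts in the basic GENCODE M21 annotation, and the reference start was that of the principal transcript. Shares have Wilson and tag numbers Poisson 95% intervals. Samples were grouped by the labels. Members and gene lists were chosen with earlier results of these data known. Named were all isoform pairs, members with no peak in any library or whose Msx2-WT state differed from both Msx2-KO libraries, and in each complex the 3 highest and the lowest, ties included, by median percentile among those with a peak in every library. Also named by the rule were members with a rank shift of 40 points, and genes of the further lists with no peak or with a Msx2-WT state that differed from both Msx2-KO libraries. Other genes named were chosen after their values were seen. Software was Python 3.11.15 with scipy 1.17.1 for intervals, pandas 2.3.3 and numpy 2.4.6 for tables and matplotlib 3.10.9 for plots.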

Additional observations from a re-analysis of the deposited data

How the results depend on the processing

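No paired analysis was possible because the groups share replicate number 1 only and no test was run. Of 320 counts and medians recomputed under other settings, 296 stayed close (counts within 1.5 times, medians within the SD of both knockout libraries) and 24 moved. With a −log10 q of at least 5, KO1 kept 41 accessible members, 16 of complex I, 6 of complex V and 17 of the assembly and cytochrome c genes, and the tissue isoforms in WT fell to 0. The sets then held 41 members in all 3 libraries (45.1%, against 24.3% of all genes) and 30 in WT and KO2 (33.0%, against 12.6%). KO2 only held 8 (8.79%, against 6.69%). Both knockout libraries only and WT only held 0 members each, against 1.52% and 3.06% of all genes. With every deposited peak kept, tissue isoforms numbered 1 in KO1 and 3 in KO2, and WT only held 0 members, against 5.62% of all genes. With lists of equal length (19450 summits), members numbered 71, 64 and 74, tissue isoforms in WT 0, both knockout libraries only 4 (4.396%, against 3.79% of all genes) and WT only 3 (3.30%, against 3.31%). With a window of 500 bases 2 members were in both knockout libraries only (2.20%, against 2.07% of all genes). The median percentile in KO1 was then 41.4, and with 3000 bases tissue isoforms in KO2 numbered 2. Ranked by the authors' fold, the median percentile was 64.7 in WT and 61.8 in KO2, and by −log10 p it was 59.6 in WT. The first settings keep fewer or more summits by construction, and the cause of these shifts was not tested. Leaving out 1 Msx2-KO library, members in Msx2-KO and not WT numbered 1 to 4, and those in WT and not Msx2-KO 1 to 16. The 4 were Ndufc2 and the 3 members of KO2 alone (3.30%, against 6.45% of all genes). The 16 were Cox7a1 and the 15 members that only KO1 lacked (16.5%, against 10.0% of all genes). Ndufc2 and Cox7a1 were each 1.10% of members, against 2.20% of all genes in either set. Members exceeded all autosomal genes in each library under each of the 7 settings of threshold, window, list length, overlap and start. KO1 was the shallowest library, with 5 tags as the least that passed, and the part of depth in its missing peaks was not tested.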
